A study of Mus musculus with 14 samples.

Results

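Semaphorins, plexins, neuropilins, ephrins and Eph receptors form the guidance families first known for steering axons and vessels, and 51 of the 19057 genes with a symbol on the array belonged to them. Members were every gene whose symbol begins with Sema and a class number, with Plxn, with Epha or Ephb and a number, or with Efna or Efnb and a number, together with Nrp1 and Nrp2. Where several probes read a gene, the probe with the highest mean over all arrays was taken, and the 51 genes had 124 probes in all. The rule uses gene names and no measured value.

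The 14 Illumina MouseWG-6 v2 arrays held RNA of GFP+CD11b+ cells sorted from C57Bl/6J mice that were 14 weeks old and had chimeric bone marrow tagged with green fluorescent protein. The tagged marrow came from mice that carry GFP behind the Ubiquitin C promoter, which is active in most cell types, so the gate took any marrow-derived cell with CD11b on its surface. There were 4 arrays of PyMT BrM, 3 of spleens and 1 of bone marrow of PyMT BrM-bearing mice, 2 of EO771 BrM, and 2 of spleens and 2 of bone marrow of naïve mice without a tumor. Both PyMT and EO771 are lines of breast cancer cells from mice. BrM, the brain metastases, were tumors grown for about 2 weeks after the cancer cells had been placed directly in the brain, a model without spread through the blood. EO771 BrM therefore had no spleen or bone marrow from the same tumor-bearing mice as controls, and the cancer model and the tumor status of the control mice cannot be told apart in that arm.

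Semaphorins are secreted or membrane-bound ligands that act through plexins, which switch small GTPases and the cytoskeleton in the receiving cell. The secreted class 3 semaphorins mostly need a neuropilin as a co-receptor, and neuropilins also bind vascular endothelial growth factor. Eph receptors are receptor tyrosine kinases whose ligands, the ephrins, sit on the membrane of a neighboring cell, with a lipid anchor in ephrin-A and a transmembrane segment in ephrin-B. In leukocytes these families are known for roles in migration, adhesion and contact between immune cells.

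Values are log2 signals, and the level of an absent transcript was read from 1504 probes for odorant and vomeronasal receptors, of which 95% had a mean under 4.44. Above this background level lay 32 of the 51 genes in the mean of at least 1 condition and 9 genes in every array, namely Epha4, Nrp1, Plxnb2, Plxnd1, Sema4a, Sema4b, Sema4d, Sema6b and Sema7a. The other 19 were above it in no condition, among them Plxna1, Plxna3, Plxna4, Sema3c, Sema3d, Sema3e, Epha5, Ephb1, Ephb3, Efna2 and Efnb2. Signals of different probes are not compared, since each probe has its own brightness.

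The library labelled PyMT spleen 2 stood apart from the other spleens. Correlations between arrays were taken over the 17663 probes with a mean above background. Its correlation with the other 4 spleens was 0.859 to 0.877, whereas those 4 correlated with each other at 0.933 to 0.982. With the 3 bone marrow arrays it correlated at 0.958 to 0.971. Its mean over B cell markers was 5.50, against 7.92 to 8.51 in the other spleens and 5.17 to 6.09 in bone marrow. Each count of called guidance genes below is therefore also given without this array. In the labels the codes of both naïve bone marrow arrays begin alike, and these arrays correlated at 0.993, so they may come from 1 animal, and calls that were lost when they were averaged into 1 are named below. The code of naïve spleen 1 holds the same number, so this array may come from that animal too. The PyMT bone marrow array shares its mouse code with PyMT BrM 3 and PyMT spleen 1. Among markers of the sort, neither Itgam, which encodes CD11b, nor Ptprc, which encodes CD45, was called between BrM and the other tissues, with log2 differences of 0.33 (SE 0.50) and -0.16 (SE 0.61). The 12 measured neutrophil markers averaged 6.47 to 9.32 in BrM, against 11.54 to 12.80 in spleens and 12.71 to 12.78 in bone marrow, and 11 of them were called lower in BrM. The 11 macrophage markers averaged 11.26 to 11.62 in BrM, against 8.24 to 10.16 in spleens and 8.14 to 8.80 in bone marrow, and 7 were called higher. The 4 erythroid markers averaged 4.67 to 6.09 in BrM, against 5.79 to 11.54 in spleens and 10.73 to 11.22 in bone marrow, and 3 were called lower. In sorted bulk cells, fewer cells of a type and less RNA per cell cannot be told apart, and the part of this change of makeup in the differences below was not tested.

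The pooled comparison asked which guidance genes differ between cells in the metastases and their counterparts in blood-forming organs, with both models pooled. Of the 51 genes, Nrp1 and Epha2 were higher in the 6 BrM arrays than in the 8 spleen and bone marrow arrays, and Sema4f was lower. That is 5.88% of the members called at an adjusted p under 0.01 from limma, beside 6.92% of all 45281 probes, so the share was near the background. Members are the brightest probe of each gene. All probes include dimmer probes of a gene and probes without a symbol, and 39% had a mean above the background level. The sets are therefore unlike, here and below. By direction, 3.92% of members and 3.8% of probes were higher, and 1.96% of members and 3.12% of probes were lower. The median log2 difference was 0.13 over the members and -0.01 over all probes, with 30 members above 0 and 21 below. The BrM arrays and the other arrays did not overlap in 3.92% of members in the higher direction and 1.96% in the lower. Among all probes this held for 3.26% and 2.81%. These members were the 3 called genes, so the lack of overlap only describes genes already called.

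Nrp1, on chromosome 8 (128358591 to 128505476, GRCm38.p6), encodes neuropilin 1, a co-receptor for class 3 semaphorins and for vascular endothelial growth factor. Its log2 signals were 10.91, 10.40, 10.06 and 10.32 in PyMT BrM and 9.09 and 9.33 in EO771 BrM. In the control tissues it read 8.0, 7.79 and 8.03 in PyMT spleens, 8.34 in PyMT bone marrow, 8.16 and 8.47 in naïve spleens, and 7.71 and 7.90 in naïve bone marrow. The 6 BrM arrays were all above the 8 control arrays, with PyMT BrM highest and EO771 BrM between them and the controls. The difference was 1.97 (SE 0.26, adjusted p = 8.3e-05 from limma), which is 3.91-fold, and 1.93 (SE 0.27, adjusted p = 0.000236) without PyMT spleen 2. Both other Nrp1 probes were called in the same direction, at 2.03 (SE 0.24) and 1.76 (SE 0.29). The average over microglia markers was likewise highest in PyMT BrM, with EO771 BrM between them and the controls, but single markers differed. Of the 8 measured, Tmem119, Olfml3 and Fcrls were called higher in BrM, and the list averaged 7.73 to 7.90 in PyMT BrM and 6.57 to 6.86 in EO771 BrM, against 4.32 to 5.22 in spleens and 4.43 to 4.79 in bone marrow. The microglia genes P2ry12, Sall1, Gpr34 and Slc2a5 were not called, at 0.40, 0.54, 1.75 and 0.05. Siglech went the other way, at -0.91, and was not called either. The part of this list in the Nrp1 difference was not tested. Nrp2, the other neuropilin, had a mean above background in PyMT bone marrow only, a single array at 4.69, and a difference of 0.15 that was not called.

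Epha2, on chromosome 4 (141301221 to 141329384), encodes a receptor tyrosine kinase best known from epithelial cells and carcinomas. PyMT BrM gave 5.37, 5.63, 4.64 and 5.42 and EO771 BrM 4.03 and 4.22. The control arrays gave 3.10, 3.22 and 1.32 in PyMT spleens, 3.30 in PyMT bone marrow, 2.30 and 3.68 in naïve spleens, and 3.46 and 3.33 in naïve bone marrow. Only the PyMT BrM arrays were above background, and the EO771 BrM arrays lay below it but above all 8 control arrays. The measured difference was 1.92 (SE 0.36, adjusted p = 0.00194), and 1.96 (SE 0.39, adjusted p = 0.00328) without PyMT spleen 2. Since every control array was below background, the fold is a bound, and BrM were at least 1.36-fold higher when control arrays were raised to the background level.

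Sema4f, on chromosome 6 (82911884 to 82939769), encodes a transmembrane class 4 semaphorin known mainly from neurons. Its signals were 3.70, 3.92, 3.80 and 4.14 in PyMT BrM and 3.85 and 4.16 in EO771 BrM, all below background. Bone marrow gave 8.42 in the PyMT array and 7.72 and 7.75 in the naïve arrays. Spleens gave 5.65, 8.46 and 4.97 in PyMT BrM-bearing mice and 4.79 and 4.95 in naïve mice. The 8.46 belonged to the library labelled PyMT spleen 2, which read like the bone marrow arrays, and the other 4 spleens were close to background. BrM were at least 4.44-fold lower, with a measured difference of -2.66 (SE 0.60, adjusted p = 0.00666). Without PyMT spleen 2 the difference was -2.39 (SE 0.57) and its adjusted p of 0.0116 was above the threshold of 0.01, which left 2 members called beside 6.38% of all probes. The call was also lost when any of 9 other arrays was left out, up to an adjusted p of 0.017, and when the 2 naïve bone marrow arrays were averaged (-2.50, adjusted p = 0.0143). A further Sema4f probe gave -2.15 (SE 0.53, adjusted p = 0.0119), and the remaining 2 probes, with means of 3.96 and 2.78, were below background.

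**Figure D1:**
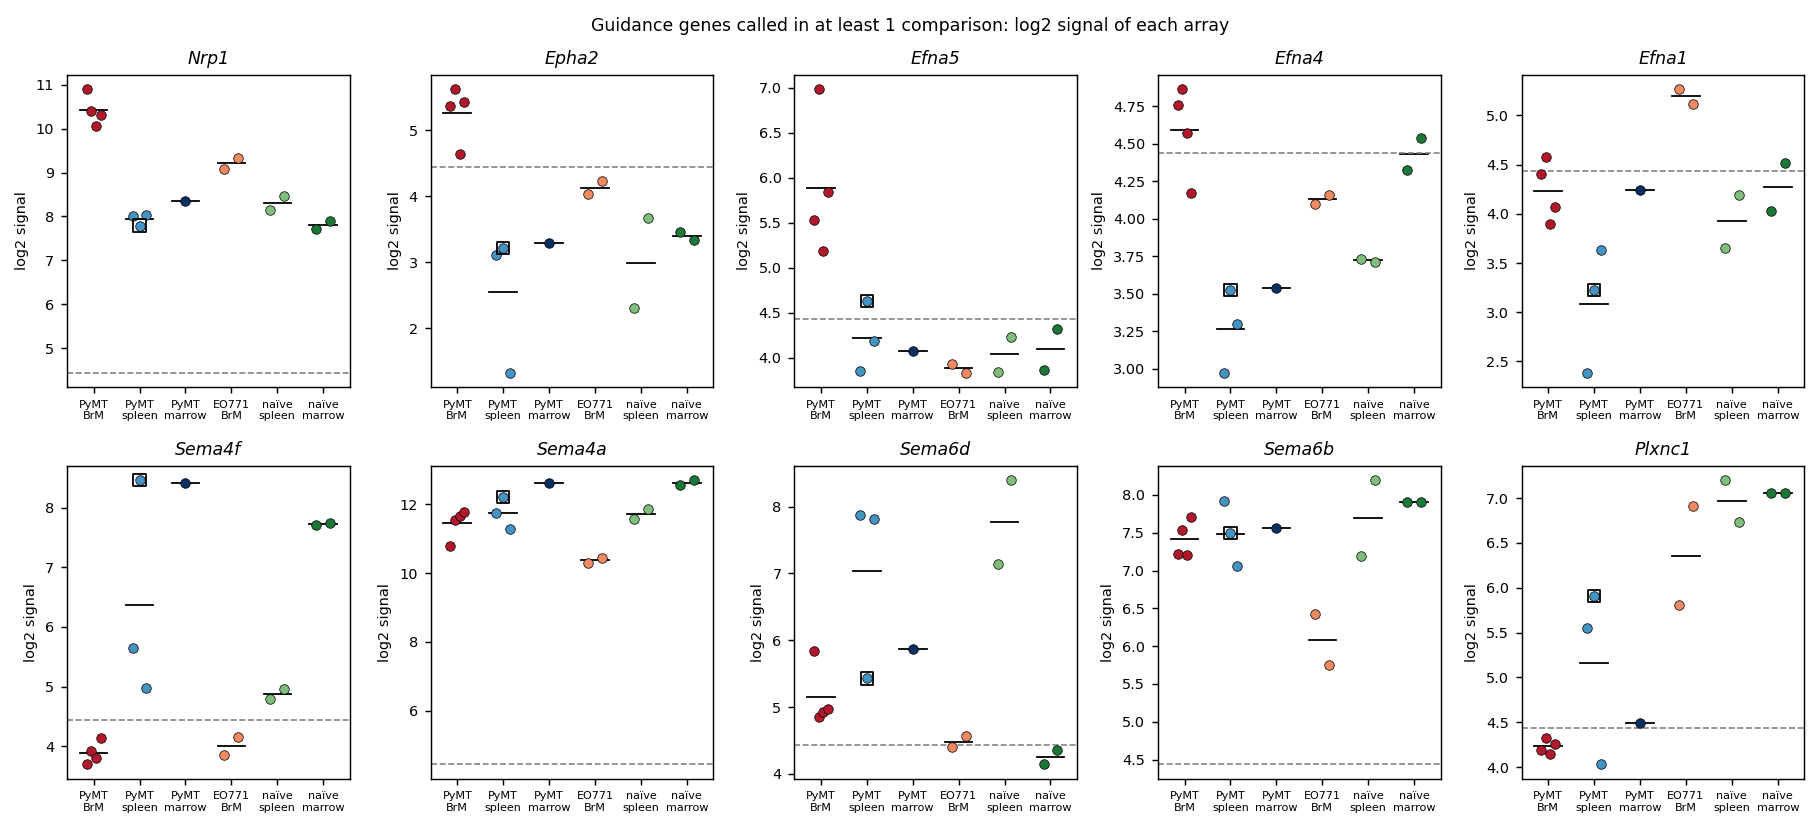
Log2 signal (vertical axis) of each array for the 10 guidance genes called in at least 1 test, by condition (horizontal axis, n = 4, 3, 1, 2, 2 and 2). Points are arrays, lines are means, the square marks the library labelled PyMT spleen 2, and the dashed line is the background level of 4.44. Nrp1 was above all other arrays in each of the 6 BrM arrays, and Sema4f was below background in all 6.

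The bases before the annotated starts of Epha2, Efna4 and Sema4f are shown because these genes include both called directions and the Eph and ephrin pair that was higher together in PyMT BrM. Promoter windows were those of RefSeq (GRCm38.p6), which held 45 of the 51 members. Each run holds the 250 bases upstream of the start, 5′ to 3′ on the gene's strand, in lower case with matches to the searched motifs in capitals on either strand.

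Epha2, chr4:141300971-141301220, plus strand: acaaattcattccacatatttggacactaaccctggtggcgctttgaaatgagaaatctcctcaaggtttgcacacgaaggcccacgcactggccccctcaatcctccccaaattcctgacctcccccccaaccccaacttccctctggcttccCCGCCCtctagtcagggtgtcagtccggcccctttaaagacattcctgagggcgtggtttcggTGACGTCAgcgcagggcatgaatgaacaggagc

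Efna4, chr3:89338029-89338278, minus strand: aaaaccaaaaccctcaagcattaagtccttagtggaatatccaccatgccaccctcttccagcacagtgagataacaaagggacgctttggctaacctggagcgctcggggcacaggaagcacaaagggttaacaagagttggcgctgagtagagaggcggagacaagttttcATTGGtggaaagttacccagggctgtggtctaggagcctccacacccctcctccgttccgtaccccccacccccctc

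Sema4f, chr6:82939770-82940019, minus strand: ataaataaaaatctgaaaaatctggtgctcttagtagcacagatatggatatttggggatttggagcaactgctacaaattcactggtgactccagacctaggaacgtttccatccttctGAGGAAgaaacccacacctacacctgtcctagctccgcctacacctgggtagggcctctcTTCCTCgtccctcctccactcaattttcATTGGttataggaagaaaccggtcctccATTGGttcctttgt

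The Epha2 window held the GC box letters GGGCGG, 96 bases before the start, and the cyclic AMP response element letters TGACGTCA, 33 bases before it. Over all 32851 windows these letters occurred in 32.7% and 1.55%. The Efna4 window held the CCAAT letters 77 bases before the start, and the Sema4f window held them 42 and 14 bases before it, as did 33.8% of all windows at some position. The PU.1 and ETS core GAGGAA, named for factors of myeloid cells among others, occurred 130 and 70 bases before the Sema4f start and in 23.3% of all windows. Both strands were also searched for the TATA box, spelled TATAAA, which 12.4% of all windows held. The AP-1 site was spelled TGANTCA and occurred in 6.75% of windows, and the hypoxia response core was spelled ACGTG and occurred in 16.6%. None of these was in the 3 windows shown. These matches are a description of letters, and binding was not measured.

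Within the PyMT model, 4 receptors and ligands were higher in BrM than in spleen and bone marrow of mice with the same tumor, and none was lower. These 4 genes, Nrp1, Epha2, Efna5 and Efna4, made up 7.84% of the members, beside 4.79% of all probes called, of which 2.92% were higher and 1.87% lower. In each of them all 4 BrM arrays lay above all 4 control arrays. How many of all probes did so was not counted for this model, so this only describes genes already called. The same 4 were called without PyMT spleen 2, beside 4% of all probes. By the mouse codes, 3 mice gave both a BrM and a spleen. In these 3 pairs Nrp1 alone was called without a replicate block, and 0 members were called with the block by mouse code, where Nrp1 differed by 2.32 (adjusted p = 0.0268), Epha2 by 2.68 (adjusted p = 0.0593), Efna5 by 1.78 (adjusted p = 0.0662) and Efna4 by 1.27 (adjusted p = 0.138).

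The difference of Nrp1 in this model was 2.38 (SE 0.23, adjusted p = 2.5e-05), or 5.2-fold, from means of 10.42 in the 4 PyMT BrM and 8.04 in the 4 PyMT spleen and bone marrow arrays. Epha2 differed by 2.53 (SE 0.42, adjusted p = 0.00175) and was at least 1.77-fold higher. Efna5, on chromosome 17 (62602957 to 62881317), encodes an ephrin-A ligand that guides axons in the visual system. Its signals were 5.54, 6.99, 5.19 and 5.84 in PyMT BrM, against 3.85, 4.63 and 4.19 in PyMT spleens and 4.08 in PyMT bone marrow. Of the 4 control arrays only PyMT spleen 2 was above background, and the difference was 1.70 (SE 0.33, adjusted p = 0.00424). In the other arrays it read 3.94 and 3.83 in EO771 BrM, against 3.85 and 4.23 in naïve spleens and 3.87 and 4.32 in naïve bone marrow, all below background. It was not called without PyMT BrM 4, without the PyMT bone marrow, or without PyMT spleen 1 or 3, up to an adjusted p of 0.0141. The other Efna5 probe, with a mean below background, gave 0.17 (SE 0.30, adjusted p = 0.79).

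Efna4, on chromosome 3 (89333393 to 89338028), encodes another lipid-anchored ephrin-A ligand. PyMT BrM gave 4.76, 4.87, 4.57 and 4.17, against 2.97, 3.52 and 3.30 in PyMT spleens and 3.54 in PyMT bone marrow. These values straddled the background level in BrM and were below it in the controls, so BrM were at least 1.11-fold higher. EO771 BrM gave 4.10 and 4.16, against 3.73 and 3.71 in naïve spleens and 4.32 and 4.54 in naïve bone marrow. The measured difference was 1.26 (SE 0.24, adjusted p = 0.00429), which was not called without any of 5 PyMT arrays (up to 0.0173), whereas the other, dimmer Efna4 probe gave -0.24 (SE 0.30, adjusted p = 0.691). Centred on reference genes, neither ephrin was called in this model, at 0.86 (adjusted p = 0.0164) for Efna4 and 1.31 (adjusted p = 0.0118) for Efna5.

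Epithelial markers were on average also highest in PyMT BrM. Of 7 carcinoma and epithelial markers, Krt8 and Cdh1 were called higher in BrM with the models pooled, and the list averaged 4.98 to 6.07 in PyMT BrM, 4.37 to 4.54 in EO771 BrM, 3.63 to 4.15 in spleens and 3.83 to 4.14 in bone marrow. Epcam, a defining gene of epithelial cells, was below background in every array. Within PyMT BrM the list was lowest in BrM 3, at 4.98, and highest in BrM 2, at 6.07. Epha2 and Efna5 were likewise lowest in BrM 3 and highest in BrM 2. The other PyMT-high genes kept this order at 1 end only. Nrp1 was lowest in BrM 3, at 10.06, but highest in BrM 1, at 10.91. Efna4 was highest in BrM 2, at 4.87, but lowest in BrM 4, at 4.17. The part of epithelial transcripts in these values was not tested.

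In the EO771 model, whose controls were naïve mice, Sema6b was lower in BrM and no other member was called. This was 1 of 51 genes, or 1.96%, beside 3.12% of all probes, 1.98% higher and 1.14% lower. Sema6b, on chromosome 17 (56123085 to 56140343), encodes a transmembrane semaphorin that binds plexin A4. Its signals were 6.42 and 5.75 in EO771 BrM, against 7.20 and 8.20 in naïve spleens and 7.91 and 7.90 in naïve bone marrow. Both BrM arrays lay below all 4 controls, with a difference of -1.72 (SE 0.32, adjusted p = 0.00485), and it was not called without either EO771 BrM array, naïve spleen 2 or either naïve bone marrow array, up to an adjusted p of 0.114. With the naïve bone marrow arrays averaged it was not called either, at -1.68 (adjusted p = 0.014). In PyMT BrM the same probe gave 7.22, 7.53, 7.20 and 7.71, against 7.91, 7.49 and 7.05 in PyMT spleens and 7.56 in PyMT bone marrow, with overlap, and the difference there was -0.09 (SE 0.26). Another Sema6b probe gave -1.28 (SE 0.30, adjusted p = 0.0182) in the EO771 model. Without PyMT spleen 2, which enters this comparison only through the shared estimate of spread, Sema4d was called as well, at 1.62 (SE 0.33, adjusted p = 0.00985), beside 3.28% of all probes. Sema4d encodes the immune semaphorin CD100, and its signals were 7.09 and 7.33 in EO771 BrM, against 5.76 and 5.01 in naïve spleens and 5.86 and 5.72 in naïve bone marrow. The change of Nrp1 in this model was 1.15 (SE 0.28, adjusted p = 0.0249), with both BrM arrays above all 4 controls.

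The test of the difference between the models' changes called 0 members with limma, beside 0.13% of all probes, with 11 members at an unadjusted p under 0.05, and 0 again without PyMT spleen 2, beside 0.0596% of all probes. The share of all probes at that unadjusted level was not counted, so the 11 members are not read as a result about the families. For Sema6b the PyMT change exceeded the EO771 change by 1.62 (SE 0.42, adjusted p = 0.162), for Efna5 by 1.89 (SE 0.52, adjusted p = 0.199), for Nrp1 by 1.23 (SE 0.37, adjusted p = 0.253) and for Efna4 by 1.21 (SE 0.38, adjusted p = 0.294). A gene called in 1 model and not in the other is therefore not shown to differ between them.

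**Figure D2:**
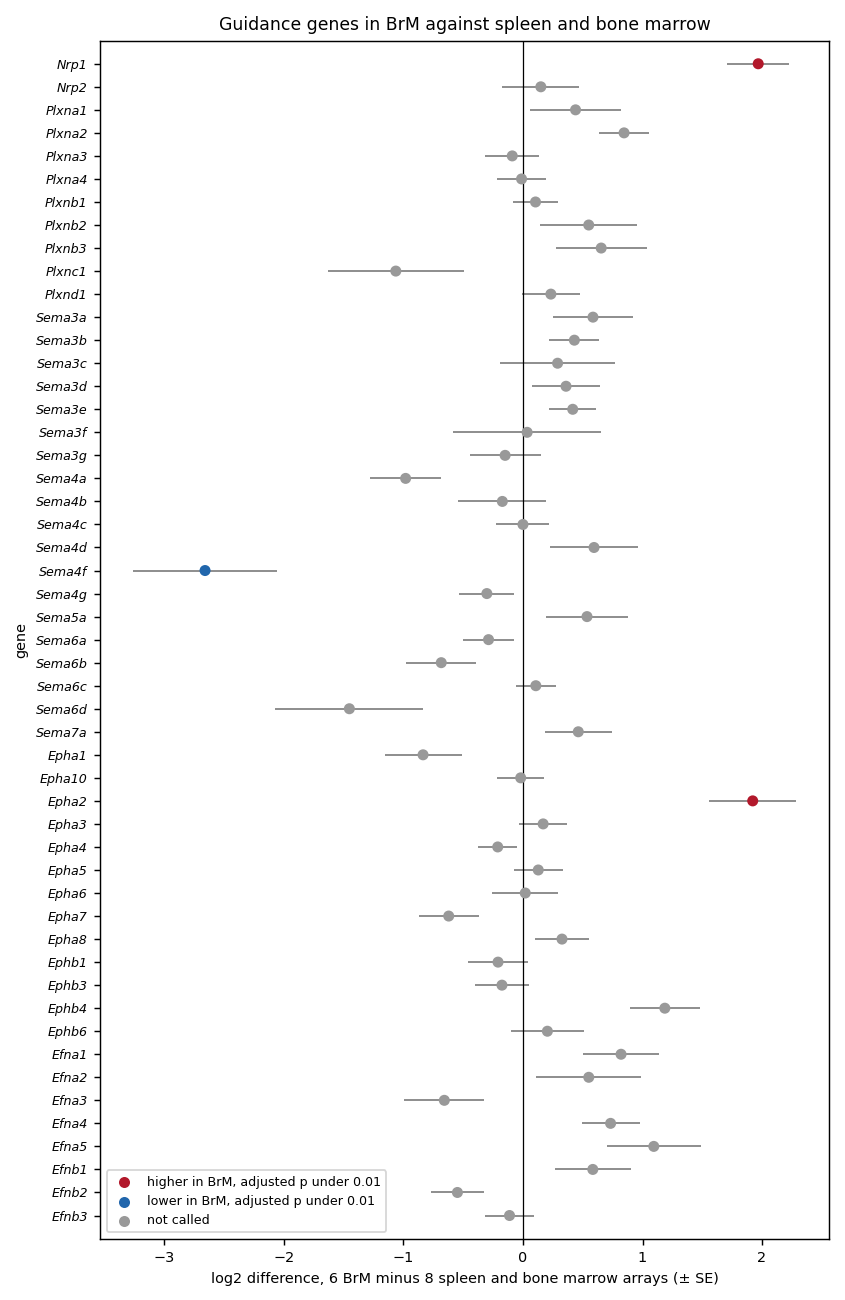
Log2 difference of 6 BrM arrays from 8 control arrays, of spleen or bone marrow (horizontal axis, bars are ± 1 SE from limma) for each of the 51 guidance genes (vertical axis, by family). Nrp1 at 1.97 and Epha2 at 1.92 were called higher, and Sema4f at -2.66 was called lower.

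The pooled control holds 2 tissues, and BrM were therefore also set against each of them. Against spleen, 5 members (9.8%) were called beside 6.75% of all probes (3.67% higher and 3.08% lower), with Nrp1, Epha2, Efna1 and Efna4 higher in BrM and Sema6d lower. Against bone marrow, 3 members (5.88%) were called beside 7.8% of all probes (4.19% higher and 3.6% lower), with Nrp1 higher and Sema4a and Sema4f lower. Nrp1 alone was called against each tissue, at 1.69 (SE 0.19, adjusted p = 0.000122) against spleen and 1.74 (SE 0.22, adjusted p = 0.000327) against bone marrow. Both comparisons share the BrM arrays.

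Sema6d, on chromosome 2 (124089943 to 124667789), encodes a transmembrane semaphorin whose receptor is plexin A1. BrM gave 5.84, 4.86, 4.93 and 4.97 in the PyMT model and 4.40 and 4.57 in the EO771 model. Spleens gave 7.88, 5.43 and 7.81 in PyMT BrM-bearing mice and 7.15 and 8.40 in naïve mice. Bone marrow gave 5.87 in the PyMT array and 4.14 and 4.36 in the naïve arrays. The spleens were high except for PyMT spleen 2, which was below PyMT BrM 1, and the BrM arrays overlapped with bone marrow. The difference from spleen was -2.59 (SE 0.44, adjusted p = 0.0022), and -2.99 (SE 0.28, adjusted p = 4.5e-05) without PyMT spleen 2. It was not called without either EO771 BrM array or naïve spleen 2, up to an adjusted p of 0.0168. The difference from bone marrow was -0.25 (SE 0.53) and was not called, and that of spleen from bone marrow was 2.34 (SE 0.54, adjusted p = 0.0965). The other 4 Sema6d probes were below background on average and were not called. The B cell list was likewise high in spleens other than PyMT spleen 2. It averaged 4.04 to 4.88 in BrM, 5.50 to 8.51 in spleens and 5.17 to 6.09 in bone marrow, and 2 of its 6 measured markers were called lower in BrM with the models pooled. The orders differed in naïve bone marrow, which was above every BrM array in this list, at 5.23 and 5.17, but below every BrM array in Sema6d. The part of B cell markers in the Sema6d difference was not tested.

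Efna1, the ephrin-A ligand best known to bind the receptor Epha2, lies on chromosome 3 (89271730 to 89280951), near Efna4 and Efna3. Its signals were 4.41, 4.57, 3.89 and 4.07 in PyMT BrM and 5.27 and 5.12 in EO771 BrM, against 2.38, 3.22 and 3.63 in PyMT spleens and 3.66 and 4.19 in naïve spleens. The EO771 BrM arrays were highest, and PyMT BrM 3 and 4 fell below naïve spleen 2, so the groups overlapped. All 5 spleens were below background, which makes the difference of 1.21 (SE 0.25, adjusted p = 0.00742) a bound of at least 1.09-fold. The calls of Efna1 and Efna4 against spleen were lost without any of 9 and 11 of the 14 arrays, and that of Epha2 without any of 6. With the naïve bone marrow arrays averaged, Efna1 (adjusted p = 0.0113) and Efna4 (adjusted p = 0.0143) were not called against spleen. In bone marrow Efna1 gave 4.25 in the PyMT array and 4.03 and 4.52 in the naïve arrays, and the difference of BrM from bone marrow was 0.45 (SE 0.30, adjusted p = 0.415). Efna4 differed from spleen by 0.87 (SE 0.18, adjusted p = 0.00805) with no overlap, but BrM were on average only at the background level there. Its other probe gave -0.66 (SE 0.23, adjusted p = 0.0863). Efna3, the neighbor of both on the chromosome, was above background in no array. Epha2 differed from spleen by 1.93 (SE 0.38, adjusted p = 0.00532) and from bone marrow by 1.35 (SE 0.45, adjusted p = 0.0712).

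Sema4a, on chromosome 3 (88435959 to 88461182), encodes a class 4 semaphorin known for its role between dendritic cells and T cells. It gave 10.79, 11.54, 11.67 and 11.79 in PyMT BrM and 10.29 and 10.45 in EO771 BrM, against 12.61 in PyMT bone marrow and 12.56 and 12.71 in naïve bone marrow. The bone marrow arrays were close together and above every BrM array. The difference from bone marrow was -1.71 (SE 0.28, adjusted p = 0.00147). Spleens gave 11.74, 12.22 and 11.30 in PyMT BrM-bearing mice and 11.57 and 11.85 in naïve mice, which overlapped with PyMT BrM. The difference from spleen was -0.82 (SE 0.23, adjusted p = 0.0368). Sema4f differed from bone marrow by -4.13 (SE 0.60, adjusted p = 0.000721) and was at least 11.5-fold lower in BrM, and its second probe was called too, at -3.53 (SE 0.54, adjusted p = 0.00105). The neutrophil markers ran the same way as these semaphorins, with the highest averages in bone marrow and in PyMT spleen 2, at 12.71 to 12.80, and 11.54 to 11.92 in the other spleens. The 5 platelet markers also had their highest averages in bone marrow, at 7.39 to 8.24, and in PyMT spleen 2, at 6.88. Their averages in BrM, at 4.29 to 6.24, were not below those of the other spleens, at 4.13 to 4.84. Of these markers 1 was called higher and 1 lower in BrM. The part of either list, or of the erythroid list, in these differences was not tested.

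Without PyMT spleen 2, 8 members were called against spleen beside 10.5% of all probes. They were the same 5 together with Sema4f at a measured -1.14 (SE 0.18, adjusted p = 0.00134) with BrM below background, Sema4b at -1.06 (SE 0.21, adjusted p = 0.00583) and Sema4d at 1.25 (SE 0.23, adjusted p = 0.00353). For Sema4d the EO771 BrM arrays, at 7.09 and 7.33, were above these spleens. The PyMT BrM arrays, at 5.15, 5.45, 6.05 and 5.23, overlapped with naïve spleen 1, at 5.76. Against bone marrow 5 were called beside 11.8% of all probes, the same 3 together with Plxnb2 at 1.31 (SE 0.23, adjusted p = 0.00235) and Sema7a at 0.99 (SE 0.20, adjusted p = 0.0053). Plxnb2 encodes a receptor of class 4 semaphorins. Its signals were 8.46, 8.68, 9.09 and 8.19 in PyMT BrM and 9.20 and 9.32 in EO771 BrM, against 7.91 in PyMT bone marrow and 7.36 and 7.32 in naïve bone marrow, with no overlap. Sema7a encodes a lipid-anchored semaphorin that binds plexin C1 and integrins. It gave 7.08, 6.95, 7.35 and 7.49 in PyMT BrM and 6.99 and 6.71 in EO771 BrM, against 6.34, 5.72 and 5.77 in the 3 bone marrow arrays, again with no overlap.

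**Figure D3:**
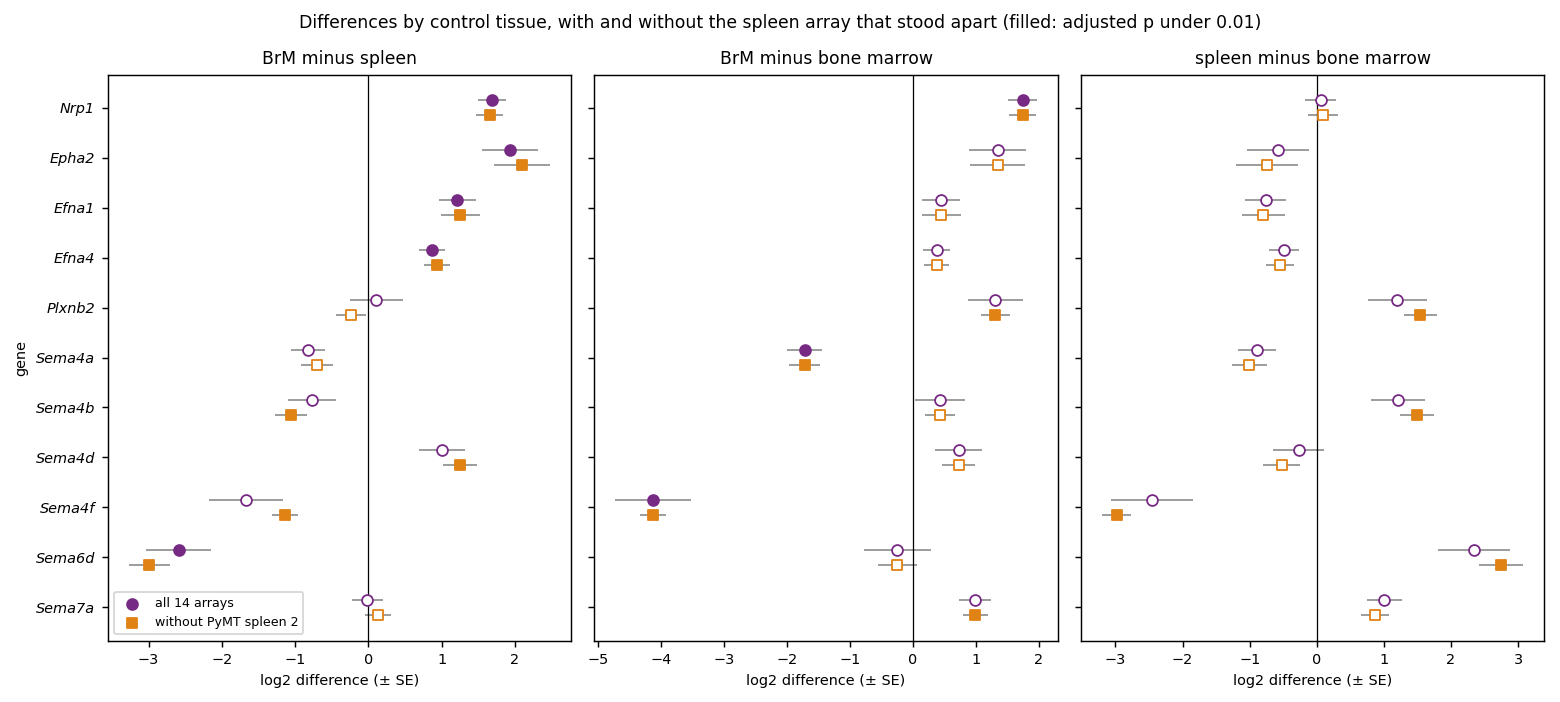
Log2 differences (horizontal axes, bars are ± 1 SE from limma) of 11 guidance genes (vertical axis) for BrM minus spleen, BrM minus bone marrow and spleen minus bone marrow. Circles are fits on all 14 arrays and squares are fits without the library labelled PyMT spleen 2, filled where the adjusted p was under 0.01. Nrp1 was called against both tissues in both fits, and Sema6d differed from spleen by -2.59 but from bone marrow by -0.25.

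Between the control tissues, 0 members were called with limma on all arrays, beside 0.00442% of all probes, with 10 members at an unadjusted p under 0.05 and 0 by the methods' t-test. Without PyMT spleen 2, 4 members were called beside 6.29% of all probes. Sema6d was higher in spleen than in bone marrow by 2.75 (SE 0.33, adjusted p = 0.000557), Plxnb2 by 1.54 (SE 0.24, adjusted p = 0.00233) and Sema4b by 1.49 (SE 0.26, adjusted p = 0.00353). Sema4f was lower in spleen by -2.98 (SE 0.21, adjusted p = 3.8e-05). Sema4b encodes a transmembrane class 4 semaphorin, and its signals were 10.98, 9.39 and 11.26 in PyMT spleens and 10.67 and 10.82 in naïve spleens, against 9.80 in PyMT bone marrow and 9.06 and 9.08 in naïve bone marrow. PyMT spleen 2 was the lowest spleen, at 9.39, and the other 4 spleens lay above all 3 bone marrow arrays. Between PyMT and naïve spleens 0 members were called with limma, beside 0.115% of all probes, with 10 at an unadjusted p under 0.05 and 0 by the methods' t-test, and 0 again without PyMT spleen 2, beside 0.367%. For neither comparison was the share of all probes at the unadjusted level counted, so these counts have no background beside them.

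Between the metastases of the 2 cancer models 0 members were called with limma, beside 1.59% of all probes, with 13 at an unadjusted p under 0.05 and 0 by the methods' t-test. Here too the share of all probes at the unadjusted level was not counted. The smallest adjusted p-values were 0.0133 for Sema5a, 0.0187 for Efna5, 0.0193 for Nrp1 and 0.0194 for Plxnc1. Sema5a, which encodes a semaphorin with thrombospondin repeats, gave 6.18, 6.07, 4.90 and 5.88 in PyMT BrM, against 4.00 and 4.15 in EO771 BrM. Without PyMT spleen 2 the smaller spread brought 3 genes past the threshold, beside 3.6% of all probes. Sema3f, a secreted ligand of neuropilin 2, was higher in PyMT BrM by 2.17 (SE 0.41, adjusted p = 0.00935), at 6.24, 6.48, 5.67 and 6.38 against 4.11 and 3.93 in EO771 BrM. Both EO771 values were below background, so the rise was at least 3.38-fold. Sema4d was lower in PyMT BrM by -1.74 (SE 0.30, adjusted p = 0.00624), at 5.15, 5.45, 6.05 and 5.23 against 7.09 and 7.33.

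Plxnc1, which encodes the receptor of Sema7a and lies on chromosome 10 (94790866 to 94945015), was lower in PyMT BrM by -2.12 (SE 0.40, adjusted p = 0.00919) in the fit without PyMT spleen 2. It gave 4.19, 4.32, 4.15 and 4.26 in PyMT BrM, all below background, against 5.80 and 6.91 in EO771 BrM, and was at least 3.78-fold lower. Its signals were 5.55, 5.91 and 4.03 in PyMT spleens and 4.50 in PyMT bone marrow, against 7.20 and 6.73 in naïve spleens and 7.05 and 7.05 in naïve bone marrow. In these tissues the 4 naïve arrays were above all 4 PyMT arrays, and the difference between PyMT and naïve spleens was -1.80 (adjusted p = 0.0686). Its other probe gave -0.31 (SE 0.20) with the models pooled. That probe was not read between the models' BrM or between PyMT and naïve spleens, so it does not check those differences. The test of any difference among the 6 conditions, an F test from limma, called Nrp1, Plxnc1, Sema4a and Sema4f, which is 7.84% of members beside 9.68% of all probes. The means of Plxnc1 spanned 2.82 over the 6 conditions (adjusted p = 0.00306). Without PyMT spleen 2 this test called 13 members, including these 4, beside 17.8% of all probes. With the 2 naïve bone marrow arrays averaged into 1 it called Nrp1 alone, and the calls of Plxnc1, Sema4a and Sema4f were lost.

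By family, most remaining members were not called. Of the 9 plexins none was called in a pairwise comparison on all arrays, and their pooled differences lay between -1.06 and 0.85. Plxnd1, the receptor of Sema3e, was above background in every array, at 8.70, 9.14, 9.36 and 8.38 in PyMT BrM and 9.69 and 9.84 in EO771 BrM, against 8.47 to 9.42 in the controls. Plxna2 gave the largest plexin difference in the higher direction, at 0.85 with an adjusted p of 0.0126. None of the 7 class 3 semaphorins was called with the models pooled, and differences ran from -0.15 to 0.59. Sema3f read 8.36 in PyMT spleen 3 and at most 6.62 elsewhere. Sema3a, the prototype ligand of neuropilin 1, gave 5.87 and 5.61 in EO771 BrM, against 3.17 and 4.33 in naïve spleens and 4.52 and 4.00 in naïve bone marrow, a difference of 1.74 (adjusted p = 0.0204). Of the 6 class 4 semaphorins Sema4f alone was called with the models pooled, and Sema4c and Sema4g were above background in no condition.

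Among the 9 EphA receptors Epha2 alone was called in any comparison. Epha4, which binds ephrins of both classes, was above background in every array but within 4.73 to 5.54. None of the 4 EphB receptors was called. Ephb4, a receptor of ephrin-B2 known from venous endothelium, gave 6.25, 6.80, 5.21 and 6.15 in PyMT BrM and 6.22 and 6.14 in EO771 BrM, against 4.25, 4.45 and 6.22 in PyMT spleens, 4.91 in PyMT bone marrow, 4.81 and 4.75 in naïve spleens and 4.85 and 5.29 in naïve bone marrow. PyMT spleen 3 and naïve bone marrow 2 overlapped with BrM, and the pooled difference of 1.19 had an adjusted p of 0.0118. None of the 3 ephrin-B ligands was called, with Efnb1, a transmembrane ligand of EphB receptors, at 5.87 to 6.49 in PyMT BrM and a pooled difference of 0.58.

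**Figure D4:**
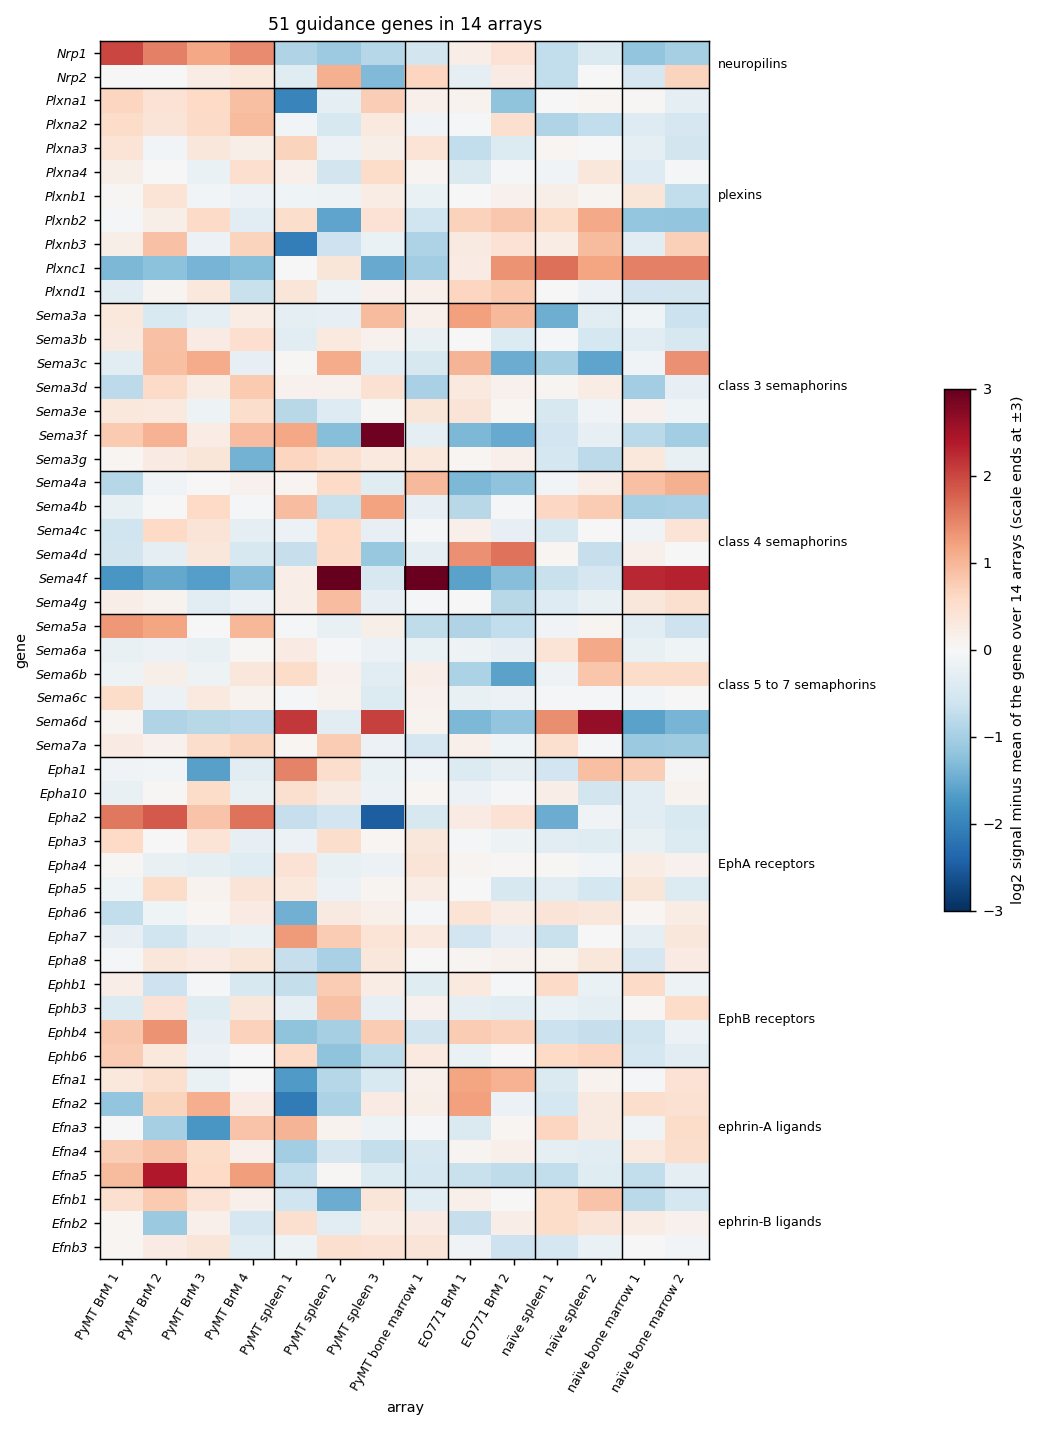
Log2 signal minus the mean of the gene over 14 arrays (color, ends of the scale at ±3) for the 51 guidance genes (vertical axis, by family) in the 14 arrays (horizontal axis, by condition). The Nrp1 row is above its mean in the 6 BrM arrays, and the Sema4f row is highest in the 3 bone marrow arrays and PyMT spleen 2, at 7.72 to 8.46.

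Co-receptors, effectors and other guidance families were read from a list of 86 genes, of which 82 were measured. Of these 82 genes, 9 were higher in BrM with the models pooled and 3 were lower. Of all 45281 probes, 1719 (3.8%) were higher and 1413 (3.12%) lower. The list median was 0.07, beside -0.01 over all probes. The list was picked with earlier results of these data known, so its counts are not read as a result about these families. The largest rise was that of Trem2, a lipid receptor that forms a complex with plexin A1 in myeloid cells, at 4.94 (SE 0.35, adjusted p = 1.5e-07). Trem2 was among the genes that the paper had picked from these arrays as high in BrM. Cd72, a receptor of Sema4d on B cells and macrophages, rose by 2.72 (SE 0.63, adjusted p = 0.00783). Dpysl2, a cytoskeletal mediator of Sema3a signals, rose by 2.55 (SE 0.24, adjusted p = 2.7e-06). Among Eph effectors the kinase Src rose by 2.09 (SE 0.39) and the exchange factor Ngef, or ephexin, by 1.84 (SE 0.36). Itgb1, the integrin subunit through which Sema7a acts, rose by 1.36 (SE 0.27). The netrin relative Ntng2 fell by 2.34 (SE 0.33), Rgs3, a regulator bound by ephrin-B, by 2.14 (SE 0.21) and Mical1, an oxidase downstream of plexins, by 1.48 (SE 0.20). Most of these partners also serve pathways other than guidance.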

How the data were processed

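RNA of sorted GFP+CD11b+ cells was profiled on 14 Illumina MouseWG-6 v2 arrays. The authors deposited log2 signals, and limma (no version) and GenomeStudio 2011.1 are named in the submitters' processing notes. How background was corrected is not given in the sources used here. Columns held the same sorted values to within 0.00192, as quantile normalization leaves them, and 80 values per array were below 0. No source states the logarithm's base, which was inferred from the spread of values. No detection p-values were used. Of 45281 probes, 34885 had 1 gene symbol and 18 had several.

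R 4.3.3 and limma 3.58.1 (lmFit and eBayes without a variance trend) were used on these values, with two-sided tests. A gene was called where its p, adjusted by Benjamini-Hochberg across the 45281 probes, was under 0.01. In the pooled comparison limma set 6 BrM against 8 other arrays, the model comparisons used a fit of 4 groups, and all others used 6 conditions, in which the single PyMT bone marrow array was assumed to vary like the others. SEs are limma's moderated ones. The scripts were tested on simulated data with known changes. The labels do not say how arrays of a group relate beyond their mouse codes, and the 2 naïve bone marrow arrays share the stem of a code, so p-values measure the spread between these samples, which may be partly technical. Precision was limited by how few arrays each condition had.

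The families, gene lists and tests were picked with earlier results of these data known. Every member could be named, and members called on all 14 arrays are given in every array. The rule also named the member with the highest mean of each family, which ranks no levels between probes, and called partner genes, up to 6 in each direction. The background level is the 95th percentile of odorant and vomeronasal receptor probes, and a bound raises to it each array of the dim group, whose arrays were all below it. Codes in the titles mark BrM and spleen of the same mouse in 3 PyMT mice, whose arrays' deviations from their group means correlated at -0.084 to -0.004. The main fits treated all arrays as independent, also those of bone marrow and spleen that share a mouse code. Alternatives were cyclic loess, centring on reference genes, leaving out dim probes, averaging probes, other variance models, the methods' t-test, a threshold of 0.05, blocks by title number or mouse code, averaging the naïve bone marrow arrays, other weights and leaving out each array. Gene positions and promoter windows are those of RefSeq on GRCm38.p6.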

Additional observations from a re-analysis of the deposited data

Results flagged for a closer look

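In PyMT BrM, the group of 4 arrays and the group large enough to be examined for a single outlying array, Sema6d read 5.84 in PyMT BrM 1, with the nearest other array at 4.97. The gap was 0.887 of the whole range of the group, above Dixon's critical value for 4 samples. This was 1 of 10 genes examined in this way, and chance flags about 1 group in 20.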

How the results depend on the processing

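All 392 alternative values of the 16 calls of named genes kept their sign, and 92 were no longer called. Nrp1 and Epha2 with the models pooled were called under every alternative that tested them and whichever array was left out. Sema4f in that comparison lost its call without any of 10 of the 14 arrays (adjusted p up to 0.017), and Efna4 and Efna1 against spleen without any of 11 and 9 arrays, up to 0.0396 and 0.0431. Sema6b in the EO771 model lost it without any of 5 arrays, up to 0.114.

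With 1 array left out in turn, 2 to 5 members were called with the models pooled, 2 to 4 in the PyMT model, 0 to 2 in the EO771 model, 1 to 8 against spleen, 3 to 5 against bone marrow, 0 to 3 between the models' BrM, 0 to 4 between spleen and bone marrow, and 1 to 13 by the F test. The difference of the models and that of PyMT and naïve spleens stayed at 0. Leaving out PyMT spleen 2 gave the highest counts in the EO771 model, against each tissue, between the models' BrM, between spleen and bone marrow and by the F test. The pooled maximum of 5 came without PyMT spleen 3, which also gave 1 call between the models' BrM, as did leaving out PyMT BrM 3. The PyMT minimum of 2 came without PyMT spleen 1. Without either EO771 BrM array 1 member was called against spleen, and without PyMT BrM 1, 2 or 4 or any of the 4 naïve arrays 2 or 3 were. The EO771 count was 0 without either EO771 BrM array, either naïve bone marrow array or naïve spleen 2. The F test called 7 without the PyMT bone marrow, 1 without naïve spleen 1 or either naïve bone marrow array, and 2 without PyMT BrM 2, naïve spleen 2 or either EO771 BrM array.

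Other settings moved the following counts. At a threshold of 0.05 there were 6 calls with the models pooled, 8 in the PyMT model, 6 in the EO771 model, 10 against spleen, 5 against bone marrow, 6 between the models' BrM and 13 by the F test. A variance trend with robust estimation gave 5 with the models pooled, 2 in the EO771 model, 4 between the models' BrM and 10 by the F test. Leaving out dim probes gave 2 in the PyMT model, 4 in the EO771 model, 2 against spleen, 4 between the models' BrM and 7 by the F test. Averaging the probes of a gene gave 2 in the PyMT model, 0 in the EO771 model and 3 against spleen, and averaging the naïve bone marrow arrays gave 0 in the EO771 model, 3 against spleen and 1 by the F test. The methods' t-test gave 1 in the PyMT model, 0 in the EO771 model, 1 against spleen and 1 against bone marrow. Centring on reference genes gave 2 in the EO771 model, and under it Efna1, Efna4 and Epha2 lost their calls against spleen and Efna4 (0.86) and Efna5 (1.31) theirs in the PyMT model. It moved the median of all probes by -0.31 with the models pooled, where 23% of called probes were then higher, against 54.9% without it. The causes were not tested.

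The replicate block by title number gave 0 in the EO771 model, 2 against spleen and 1 by the F test. In the PyMT model the 3 mice with both tissues gave 0 calls with the replicate block by mouse code and 1 without it, from fewer arrays. Arrays with the same title number did not deviate together, with correlations of -0.084 to -0.052. Neither did arrays with the same mouse code, at -0.084 to -0.004, so these correlations do not tell the pairings apart. The mouse codes were taken to pair the samples, and the title numbers were not. The arrays' number and signals near background limit what the dim members can show.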
